A study of Homo sapiens with 6 samples.

Results

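The 58 genes described here lie along the long arm of chromosome 14 (14q) and were chosen from an RNA-seq comparison of parental and *ZKSCAN3*-deficient HCT116 cells because 14q genes were higher as a block in the deficient cells. They were taken by gene symbol from a table of 46427 genes, they leave out 14q genes that belong to other pathway groups, and all 58 passed the filter on low counts. The choice rests on the difference between the genotypes, so that difference is described for these genes and is not tested.

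HCT116 is a near-diploid human colorectal carcinoma line. *ZK3*-WT cells were the parental line, and *ZK3*-KO cells carried a CRISPR/Cas9 deletion of the *ZKSCAN3* start codon on both alleles. Both were grown in DMEM with 10% FBS, and RNA from 3 biological replicates of each was sequenced as stranded, paired-end mRNA libraries. The methods describe puromycin selection and single-cell cloning of the edited cells, so the 3 *ZK3*-KO libraries come from clonal cells, and what came with the clone and what came with the loss of *ZKSCAN3* cannot be told apart. DNA copy number was not measured in these libraries.

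Cells that gain or lose a chromosome segment usually change the transcript levels of its genes in rough proportion to the number of gene copies. A gain from 2 to 3 copies of a segment then gives a ratio of 3 to 2, which is 1.5-fold or 0.58 on the log2 scale. Single genes can depart from the dosage of their segment because feedback on transcription or RNA decay buffers them, or because other regulators act on them, and subunits of protein complexes have often been studied in this respect because their partners are encoded on chromosomes whose dosage did not change.

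Library depth ranged from 60827060 to 69739215 counted reads. Of the colon epithelial markers, *EPCAM*, *KRT8*, *KRT18*, *CDH1* and *CDX2* had at least 965 reads in every library and *KRT20* had 34 to 129, while *CDX1* had 0 reads and *VIL1* at most 7. The leukocyte markers *PTPRC* and *CD3E* had 0 reads, *PECAM1* had at most 10 and *COL1A2* at most 4, although *COL1A1* had 2234 to 6104. Levels are given as CPM (counts relative to the library total after TMM scaling), always in the order of replicates 1, 2 and 3. The targeted gene *ZKSCAN3* had 28.1, 23.4 and 19.8 CPM in the *ZK3*-WT libraries against 25.4, 24.9 and 13.6 CPM in the *ZK3*-KO libraries, and reads summed over a gene do not show a lost start codon. *ZK3*-KO replicate 3 stood apart: its correlation of log2 CPM over the tested genes was 0.973 with *ZK3*-KO replicate 1 and 0.961 with replicate 2, against 0.993 between those replicates and 0.990 to 0.994 among *ZK3*-WT libraries, and it was 0.977 with *ZK3*-WT replicate 3. Where leaving it out moved the ratio of a gene by over 1.5 times, the ratio without it is given too.

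Promoter sequences are shown for 3 of the genes because they stand for the contrast within the arm: *SAMD4A* had the lowest ratio of the 58, and *ZFP36L1* and *ACTN1* are adjacent genes of the set with unlike ratios. Each line gives the 250 bases before the first RefSeq transcription start listed for the gene (RefSeq table of GRCh38.p14). Other starts of a gene were not considered. The bases run 5′ to 3′ in the direction of the gene, with CG dinucleotides in capitals. By exact match, the windows lie in GRCh37 at chr14:55033596-55033845 (forward strand) for *SAMD4A*, chr14:69262961-69263210 (reverse strand) for *ZFP36L1* and chr14:69446020-69446269 (reverse strand) for *ACTN1*. The *SAMD4A* window lies inside the gene as the GRCh37 annotation places it, so it is not upstream of the whole gene.
SAMD4A: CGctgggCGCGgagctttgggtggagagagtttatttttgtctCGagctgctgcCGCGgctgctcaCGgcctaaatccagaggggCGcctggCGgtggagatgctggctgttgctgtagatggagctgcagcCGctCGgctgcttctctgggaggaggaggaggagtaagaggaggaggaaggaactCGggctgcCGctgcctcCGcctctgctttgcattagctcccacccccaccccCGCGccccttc
ZFP36L1: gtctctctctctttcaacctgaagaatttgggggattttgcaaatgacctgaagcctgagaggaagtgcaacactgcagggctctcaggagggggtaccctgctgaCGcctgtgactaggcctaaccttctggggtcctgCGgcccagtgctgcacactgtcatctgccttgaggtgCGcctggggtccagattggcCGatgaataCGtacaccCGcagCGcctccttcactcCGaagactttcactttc
ACTN1: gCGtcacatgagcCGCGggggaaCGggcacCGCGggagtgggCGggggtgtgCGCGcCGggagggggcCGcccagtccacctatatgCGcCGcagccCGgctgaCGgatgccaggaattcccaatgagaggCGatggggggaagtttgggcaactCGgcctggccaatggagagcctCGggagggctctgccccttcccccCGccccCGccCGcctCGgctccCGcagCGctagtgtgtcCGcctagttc
These windows held 16, 8 and 25 CG dinucleotides, with the fewest in *ZFP36L1* and the most in *ACTN1*. A promoter was found for 51 of the 58 genes, and their windows held a median of 22 CG dinucleotides. The median was 11 over all 27305 promoters of the table and 11 over the 900 on chromosome 14. These were not limited to genes that passed the count filter, as the set was, so the contrast cannot be read as a trait of the set. At least 1 CG was present in 98.0% of the windows of the set and in 93.6% of all promoters (CG reads the same on both strands). The letters TATAAA, searched on both strands, occurred in 2 of the 51 windows (3.92%), those of *COQ6* and *ZFYVE1*, and in 11.1% of all promoters.

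The 58 genes were higher in *ZK3*-KO cells by a median of 0.58 on the log2 scale, a fold of 1.49, with an interquartile range from 0.33 to 0.75. Of the 58, 55 had a ratio above 0. In 34 of them all 3 *ZK3*-KO libraries were above all 3 *ZK3*-WT libraries, which held for 12.7% of the 18366 genes tested, and in 0 of them all were below, which held for 13.8%. The 95% interval of the ratio lay above 0 in 34 of the 58 genes and in 8.89% of all tested genes. These shares follow from how the genes were chosen. In the edgeR quasi-likelihood fit, 6 of the 58 were past an FDR of 0.05 and higher, where 0.817% of all tested genes were, and 0 were past it and lower, where 1.23% of all tested genes were. The count of 6 was 0 when any 1 of the other 5 libraries was left out and 36 without *ZK3*-KO replicate 3, where 7.41% of the genes tested were past the threshold and higher.

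The shift was present in each *ZK3*-KO library. Relative to the *ZK3*-WT mean, the median of the 58 genes was 0.61 in replicate 1, 0.59 in replicate 2 and 0.39 in replicate 3, while the *ZK3*-WT libraries stood at −0.0093, 0.027 and −0.027. The lowest *ZK3*-KO median was thus well above the highest *ZK3*-WT median. Above the *ZK3*-WT mean were 56 of the genes in replicate 1, 53 in replicate 2, 46 in replicate 3 and 42 in all 3. Set against the *ZK3*-WT library of the same number, 42 of the 58 were higher in *ZK3*-KO in all 3 pairs, as were 22.7% of all tested genes, and 1 (*SAMD4A*) was lower in all 3. Without *ZK3*-KO replicate 3 the median ratio was 0.65. In bulk RNA, a gain in every cell and a larger gain in a part of the cells cannot be told apart, and the same holds for fewer cells of a kind and less RNA per cell.

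**Figure D1:**
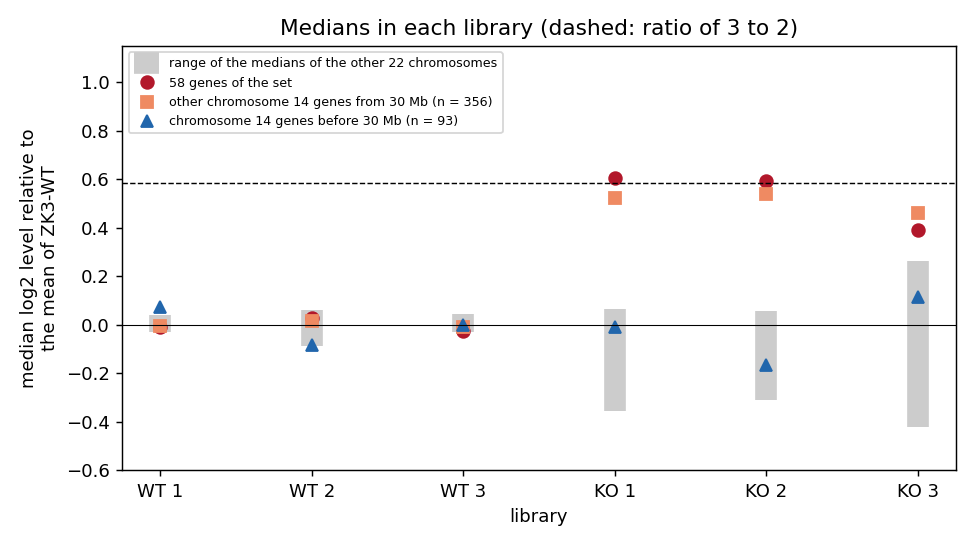
Median log2 level in each library relative to the *ZK3*-WT mean for the 58 genes (circles), the other chromosome 14 genes from 30 Mb on (squares) and chromosome 14 genes before 30 Mb (triangles), with the range of the medians of the other 22 chromosomes as grey bars. The 58 genes sit at 0.61, 0.59 and 0.39 in *ZK3*-KO replicates 1, 2 and 3, above the grey bars, and the genes before 30 Mb do not.

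The raised stretch did not cover the whole arm. The 58 genes start at 39.5 Mb with *SEC23A* and end at 105.2 Mb with *AKT1*, and a further 449 tested genes of chromosome 14 are not in the set. The 93 tested genes before 30 Mb had a median log2 ratio of 0.043, with 48 above 0. From 30 Mb on, the 356 genes outside the set had a median of 0.60 (fold 1.52), 304 of them were above 0, and in 54.2% of them the *ZK3*-KO libraries were all above the *ZK3*-WT libraries. The position of 30 Mb was read from medians in blocks of 10 Mb after these were seen.

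The medians changed across that position, but few tested genes lay just before it. The last tested gene before it, the pseudogene *BNIP3P1* at 28733596, had a log2 ratio of 0.18 at a low level (average log2 CPM −1.47). The first one after it, *G2E3* at 31028364, had 0.62. The 20 genes before had a median of 0.012, with 10 of 20 above 0, and the 20 genes after had a median of 0.62, with 18 of 20 above 0. No tested gene was placed between them, so the data locate the step no more closely than that. Beyond 30 Mb, median ratios per 10 Mb ranged from 0.40, over 8 genes between 40 and 50 Mb, to 0.64 in the fit of all libraries. Single libraries were less even. Medians at 30 to 40 Mb and at 100 to 110 Mb were 0.70 and 0.35 in *ZK3*-KO replicate 1. They were 0.58 and 0.47 in replicate 2, and 0.39 and 0.56 in replicate 3. Between 40 and 50 Mb replicate 3 was at −0.096. Without replicate 3 the median ratios of the same 2 outer blocks were 0.79 and 0.48. Across the 58 genes the ratio had a rank correlation of 0.18 with position and of 0.13 with the *ZK3*-WT level in TPM.

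**Figure D2:**
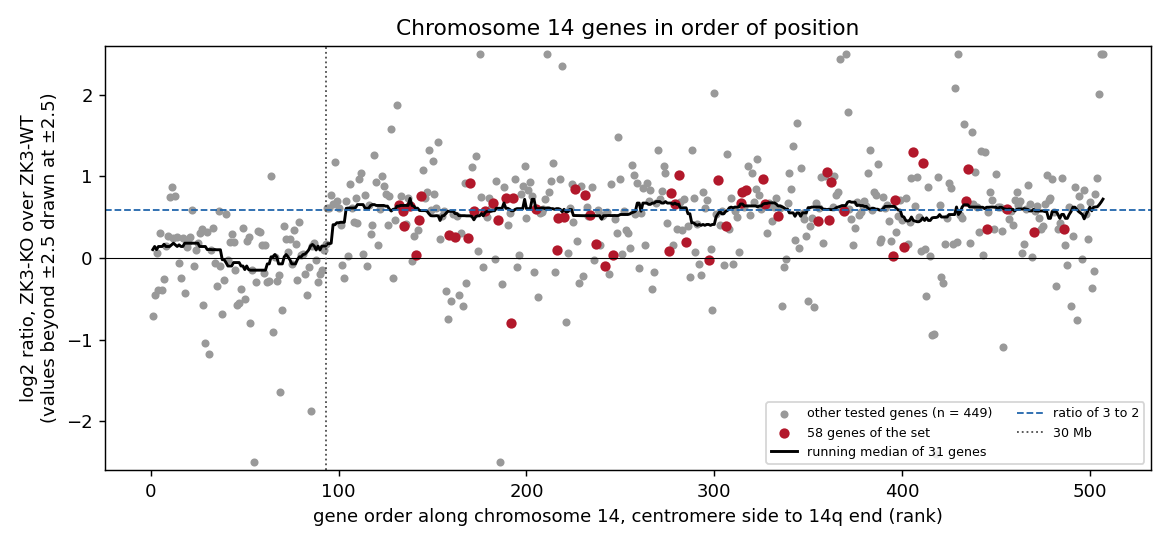
Log2 ratio of *ZK3*-KO over *ZK3*-WT for each tested chromosome 14 gene in order of position, with the 58 genes in red, the other 449 in grey and a running median as a black line. The running median, from the fit of all libraries, leaves 0 at 30 Mb (dotted line) and stays near the ratio of 3 to 2 (dashed line) to the end of the arm. Single *ZK3*-KO libraries were less even along the arm.

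Chromosome 14 took 2.44% to 2.52% of the counted reads in *ZK3*-WT libraries and 3.40%, 3.54% and 2.82% in *ZK3*-KO replicates 1, 2 and 3. The medians of the other chromosomes ranged from −0.39 (chromosome 21) to 0.14 (chromosome 19). With scaling factors computed without chromosome 14 genes the median of the 58 was 0.59.

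The single genes were set beside the ratio of 3 to 2 by the 95% interval of each estimate. The interval held the ratio of 3 to 2 in 47 of the 58 genes (81.0%), in 76.4% of the other chromosome 14 genes from 30 Mb on and in 51.8% of all tested genes. The counts by interval are a description, since wide intervals hold this ratio in genes of any chromosome. The intervals are also not adjusted for the number of genes, so some can leave the ratio out by chance. In 30 of these the interval left out 0, which was so for 7.71% of all tested genes, and in 17 it held both values, so that these genes could not be placed. Above the ratio of 3 to 2 were 4 genes (*ERH*, *ALKBH1*, *DDX24* and *VRK1*), with 10.1% of the other genes from 30 Mb on and 1.18% of all tested genes. Below it were 7, of which *SAMD4A* was also below 0, while *SNAPC1*, *ZBTB25*, *SRSF5*, *PCNX1*, *TRIP11* and *GOLGA5* had intervals that held 0. Intervals below the ratio made up 13.5% of the other genes from 30 Mb on and 47% of all tested genes. Without *ZK3*-KO replicate 3, intervals were narrower, with a median standard error of 0.146 in place of 0.194. Then 38 genes held the ratio, 10 were above and 10 below, where the shares over all genes tested were 40.8%, 2.19% and 57%. The 11 genes named here left it out in both fits, which share all libraries but *ZK3*-KO replicate 3 and so are not independent. Those that joined them above the ratio were *SEC23A*, *ENTPD5*, *YLPM1*, *AHSA1*, *UBR7* and *PAPOLA*, and those that joined below it were *SOS2*, *ZFP36L1* and *GSTZ1*. Of the 58 genes, 28 (48.3%) were within 0.2 of the ratio of 3 to 2 on the log2 scale, as were 41.9% of the other chromosome 14 genes from 30 Mb on and 12.5% of genes on other chromosomes.

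**Figure D3:**
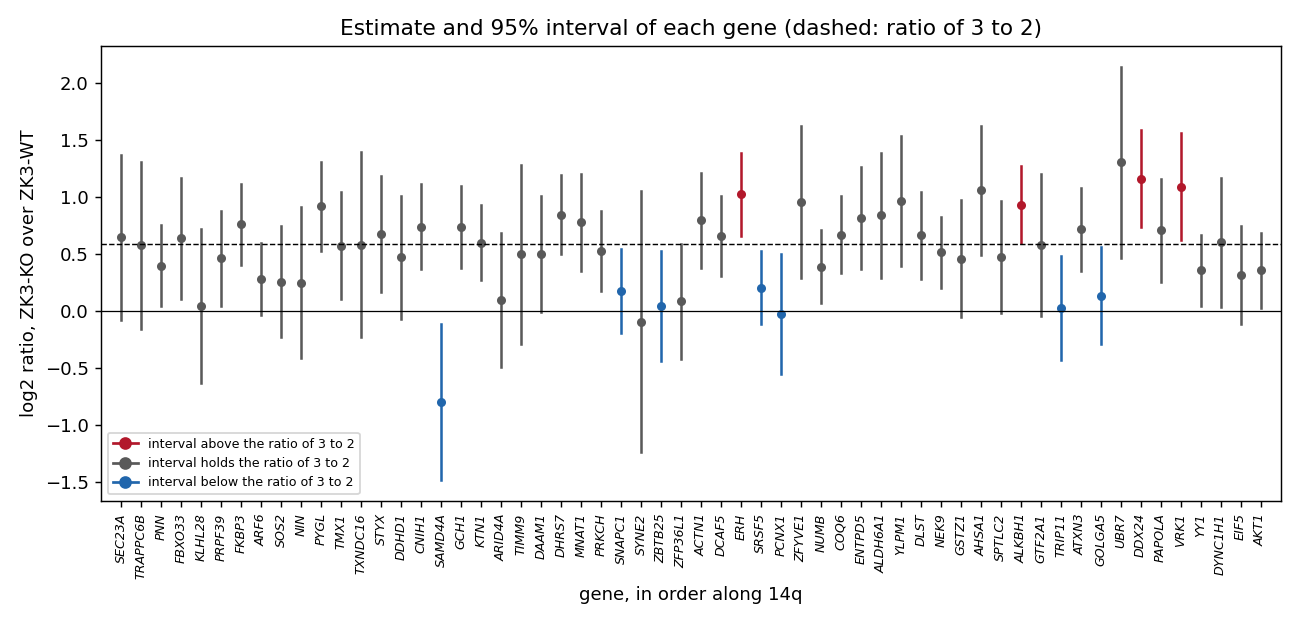
Log2 ratio of *ZK3*-KO over *ZK3*-WT with its 95% interval for the 58 genes in order along 14q. Intervals of 4 genes lie above the ratio of 3 to 2 (dashed line), those of 7 lie below it, and 47 hold it.

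The genes nearest to the ratio of 3 to 2 differed in how evenly the *ZK3*-KO libraries carried it. *KTN1* encodes kinectin, an anchor for kinesin on membranes, and lies at chr14:56025790-56168244. The *ZK3*-WT libraries had 172, 187 and 184 CPM, and the *ZK3*-KO libraries had 280.4, 289.9 and 252 CPM. The groups did not overlap, and the log2 ratio was 0.60 (95% interval 0.27 to 0.92). *TMX1*, a thioredoxin-related protein of the endoplasmic reticulum membrane, had 57.97, 69.9 and 56.9 CPM in *ZK3*-WT and 96.1, 109.5 and 69.1 CPM in *ZK3*-KO libraries, a ratio of 0.57. *DYNC1H1*, the heavy chain of cytoplasmic dynein, had 820.2, 671 and 609.7 CPM and 1212, 1241 and 734 CPM, a ratio of 0.60. In both, *ZK3*-KO replicates 1 and 2 were above every *ZK3*-WT library and replicate 3 lay within their range, although above the *ZK3*-WT library of the same number. *GTF2A1*, a subunit of the general transcription factor TFIIA, had 65.7, 84.3 and 68.1 CPM against 130.1, 128 and 67.4 CPM (ratio 0.58), with replicate 3 within the *ZK3*-WT range and just below *ZK3*-WT replicate 3. *TXNDC16*, a thioredoxin-domain protein of the endoplasmic reticulum and the gene of the set with the fewest reads (264 in its lowest library), had 6.41, 5.42 and 4.43 CPM against 10.3, 9.71 and 4.27 CPM (ratio 0.58, and 0.89 without replicate 3), with replicate 3 below every *ZK3*-WT library. *TRAPPC6B*, a subunit of the TRAPP tethering complexes, had its highest level in replicate 3. It had 39.2, 50.03 and 56.6 CPM in *ZK3*-WT and 61.2, 47.1 and 109 CPM in *ZK3*-KO libraries, and its ratio of 0.58 was 0.16 without replicate 3.

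*SAMD4A* encodes a Smaug-type protein that binds stem-loops in mRNAs and represses their translation. It lies at chr14:55032835-55260033 on the forward strand, inside the raised stretch. The *ZK3*-WT libraries had 26.9, 52.8 and 48.4 CPM and the *ZK3*-KO libraries 22.3, 19.7 and 31.6 CPM. *ZK3*-WT replicate 1 was near the *ZK3*-KO values and below *ZK3*-KO replicate 3, so the groups overlapped. Each *ZK3*-KO library was below the *ZK3*-WT library of the same number, but the labels do not say what same-numbered libraries share. Means were 42.7 ± 13.9 CPM in *ZK3*-WT and 24.6 ± 6.28 CPM in *ZK3*-KO cells (SD, n = 3 each), and the log2 ratio was −0.80 (95% interval −1.48 to −0.11) and −1.02 without *ZK3*-KO replicate 3. Its neighbours in the set behaved otherwise. *CNIH1*, a cargo receptor for export from the endoplasmic reticulum, ends 124.7 kb before it and had 83.3, 97.3 and 99.04 CPM in *ZK3*-WT against 146, 142 and 179.7 CPM in *ZK3*-KO libraries, a ratio of 0.74. *GCH1*, the first enzyme of tetrahydrobiopterin synthesis, begins 48.7 kb after it and had 22.2, 28.6 and 26.5 CPM against 40.4, 45.9 and 42.1 CPM, a ratio of 0.73. In both neighbours every *ZK3*-KO library was above every *ZK3*-WT library.

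Further contrasts between adjacent genes of the set are given here. They were picked with their values known, and other adjacent genes of the set had similar ratios. *ZFP36L1*, which binds AU-rich elements and promotes mRNA decay, is at chr14:69254377-69262970, 77.9 kb before *ACTN1*, the alpha-actinin that crosslinks actin filaments. *ZFP36L1* had 221, 307 and 308 CPM against 258, 257 and 371 CPM, and *ACTN1* had 195, 216 and 241 CPM against 325, 358 and 447 CPM. The groups of *ZFP36L1* overlapped (ratio 0.083, 95% interval −0.42 to 0.59, and −0.11 without *ZK3*-KO replicate 3) and those of *ACTN1* did not (ratio 0.79, 95% interval 0.37 to 1.21). *TRIP11*, a Golgi tether, and *ATXN3*, a deubiquitinase, are 3.6 kb apart on the reverse strand. *TRIP11* had 51.1, 54.3 and 49.3 CPM against 58.7, 60.3 and 38.4 CPM (ratio 0.026, and 0.21 without replicate 3), and *ATXN3* had 24.3, 26.2 and 24.3 CPM against 47.5, 36.2 and 38.9 CPM (ratio 0.71). *TRIP11* was above the *ZK3*-WT libraries in replicates 1 and 2 and below them in replicate 3, whereas *ATXN3* was above them in all 3.

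**Figure D4:**
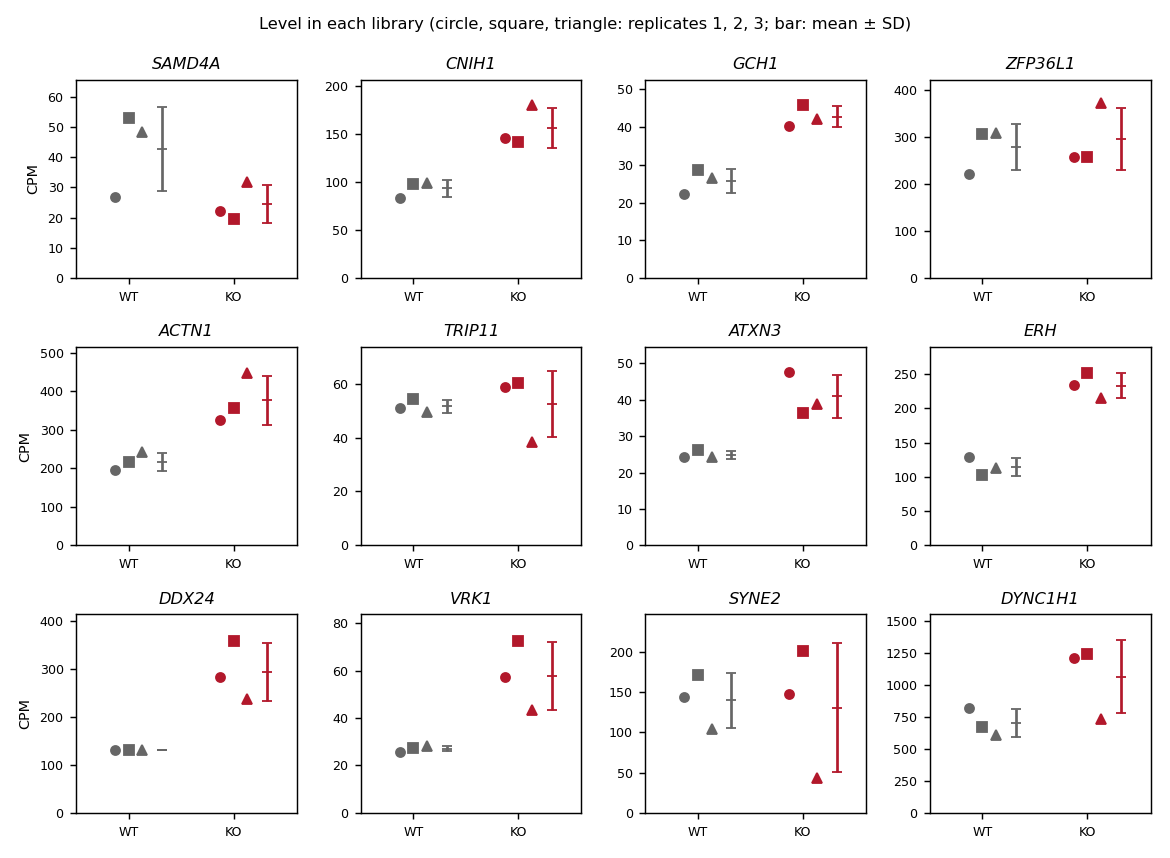
CPM in each library for 12 of the genes (*ZK3*-WT in grey, *ZK3*-KO in red; marker shapes give the replicate, bars the mean ± SD, n = 3). *CNIH1*, *GCH1*, *ACTN1*, *ATXN3*, *ERH*, *DDX24* and *VRK1* show no overlap between the groups, while *SAMD4A*, *ZFP36L1*, *TRIP11*, *SYNE2* and *DYNC1H1* do.

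The 9 genes of vesicle and cargo traffic, which move proteins between the endoplasmic reticulum, the Golgi and the cell surface, had a median ratio of 0.58, and 7 of their intervals held the ratio of 3 to 2. *SEC23A*, a subunit of the COPII coat, had a ratio of 0.64, and *ZFYVE1*, a marker of sites where autophagosomes form, had 0.96 (0.64 without *ZK3*-KO replicate 3). *ARF6*, a small GTPase of endocytic recycling, stood lower at 0.28, as did the endocytic adaptor *NUMB* at 0.39. *GOLGA5*, a Golgi tether like *TRIP11*, had 42.8, 51.6 and 52.3 CPM against 50.9, 44.8 and 65.4 CPM. Its groups overlapped, with a ratio of 0.13 (95% interval −0.29 to 0.56) that was −0.027 without *ZK3*-KO replicate 3, and both Golgi tethers were thus below the ratio of 3 to 2.

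The 10 genes of RNA processing and translation spread most widely of the 7 role groups, from −0.80 to 1.16, with a median of 0.43. *ERH*, a small conserved protein of mRNA processing, is at chr14:69846845-69865016 on the reverse strand and had 129, 102 and 113 CPM in *ZK3*-WT and 233, 251 and 215 CPM in *ZK3*-KO libraries. *DDX24*, a DEAD-box RNA helicase at chr14:94514633-94547548 on the reverse strand, had 131, 132 and 131 CPM against 284, 358 and 238 CPM. Every *ZK3*-KO library was above every *ZK3*-WT library for both genes, and the *ZK3*-WT values of *DDX24* were nearly the same. Their ratios were 1.02 (95% interval 0.66 to 1.38) and 1.16 (95% interval 0.74 to 1.58), folds of 2.03 and 2.23. *YLPM1* had 83.5, 73.9 and 64.5 CPM against 155, 181 and 96.9 CPM, a ratio of 0.96. *SRSF5*, a serine/arginine-rich splicing factor 328.6 kb from *ERH*, had 191, 182 and 180.2 CPM against 219, 194 and 223 CPM. Its *ZK3*-KO libraries were again all above the *ZK3*-WT libraries, but by less, and the ratio of 0.20 (95% interval −0.12 to 0.52) lay below that of 3 to 2. *PAPOLA*, the canonical poly(A) polymerase, had a ratio of 0.71, *PRPF39*, a U1 snRNP splicing factor, had 0.46, *PNN*, a protein of nuclear speckles, had 0.40, and *EIF5*, the GTPase-activating factor for eIF2, had 0.32.

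Among the 9 genes of protein folding and ubiquitin conjugation the median was 0.66, and all 9 intervals held the ratio of 3 to 2. *UBR7*, a UBR-box protein of the ubiquitin system, had the highest ratio of the 58 (1.30), with 42.3, 34.6 and 32.3 CPM against 94.9, 129.9 and 44.2 CPM. *ZK3*-KO replicate 3 was only just above the *ZK3*-WT libraries, the 95% interval was wide (0.46 to 2.14), and without that replicate the ratio was 1.63. *AHSA1*, the activator of the HSP90 ATPase, had 119, 87.7 and 89.9 CPM against 196, 269 and 151 CPM without overlap, a ratio of 1.06 (95% interval 0.49 to 1.62). *KLHL28*, a kelch-like protein, had 16.9, 21.1 and 14.7 CPM against 22.9, 20.4 and 10.97 CPM with full overlap, a ratio of 0.043 that was 0.31 without replicate 3. The prolyl isomerase *FKBP3* had a ratio of 0.76, the F-box protein *FBXO33* 0.64 and the cullin 4 substrate receptor *DCAF5* 0.66.

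*VRK1* led the 6 kinases, pseudophosphatases and growth signalling genes, whose median was 0.52. It encodes a nuclear serine/threonine kinase with roles in mitosis and lies at chr14:97263641-97421183 on the forward strand. The *ZK3*-WT libraries had 25.9, 27.4 and 28.02 CPM and the *ZK3*-KO libraries 57.2, 72.3 and 43.5 CPM. The groups did not overlap, and the ratio was 1.09 (95% interval 0.62 to 1.56), a fold of 2.13. *STYX*, a catalytically inactive phosphatase, had a ratio of 0.68, the protein kinase C isoform *PRKCH* 0.52 and the mitotic kinase *NEK9* 0.51. *AKT1*, the kinase downstream of PI3K, and *SOS2*, an exchange factor for Ras, had the lower ratios of 0.36 and 0.26, and that of *SOS2* was 0.032 without *ZK3*-KO replicate 3.

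The 6 genes grouped under cytoskeleton, centrosome and nuclear envelope had a median of 0.38. This group also holds the membrane protein *PCNX1*, whose low ratio enters the median. In 1 of the 6, *ACTN1*, the *ZK3*-WT and *ZK3*-KO libraries did not overlap. *SYNE2*, which encodes the giant nuclear envelope protein nesprin-2, had 144, 171 and 104 CPM in *ZK3*-WT and 148, 201 and 43.8 CPM in *ZK3*-KO libraries. Replicate 3 was far below every other library, and the ratio of −0.095 (95% interval −1.24 to 1.05) became 0.32 without it. *PCNX1*, a pecanex-family membrane protein, had 104, 114 and 92.1 CPM against 114, 121 and 69.7 CPM, a ratio of −0.026 (95% interval −0.55 to 0.50) that was 0.19 without replicate 3. The interval of *PCNX1* lay below the ratio of 3 to 2 in both fits, whereas that of *SYNE2* was too wide to place it. The centrosomal protein *NIN* had a ratio of 0.25, which was 0.53 without replicate 3, and the formin *DAAM1* had 0.50.

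In the fit of all libraries, the 11 metabolic and mitochondrial genes had the narrowest range of the 7 groups, with ratios from 0.46 to 0.92. Their median was 0.67, and all 11 intervals held the ratio of 3 to 2. *PYGL*, the liver form of glycogen phosphorylase, had the highest of these ratios (0.92), followed by the short-chain dehydrogenase *DHRS7* (0.84), *ALDH6A1* of valine breakdown (0.84) and *ENTPD5*, a nucleoside diphosphatase of the endoplasmic reticulum (0.81). *COQ6*, a hydroxylase of ubiquinone synthesis, had 0.67, and *DLST*, the succinyltransferase of the 2-oxoglutarate dehydrogenase complex, had 0.66. Lower were *TIMM9*, a chaperone of the mitochondrial intermembrane space (0.49), the serine palmitoyltransferase subunit *SPTLC2* (0.47), the phospholipase *DDHD1* (0.47) and *GSTZ1* of tyrosine breakdown (0.46). Of the 11, *TIMM9* and *GSTZ1* depended on *ZK3*-KO replicate 3, with ratios of 0.076 and 0.20 without it. The narrow range of the group thus did not hold without that replicate.

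The 7 genes of transcription, chromatin and nucleic acid enzymes had a median of 0.36 and stood on both sides of the ratio of 3 to 2. *ALKBH1*, a dioxygenase that removes methyl groups from nucleic acids, is at chr14:78138747-78174366 on the reverse strand and had 15.1, 15.8 and 15.6 CPM in *ZK3*-WT and 26.97, 32.2 and 29.3 CPM in *ZK3*-KO libraries. The groups were far apart relative to their spread, and the ratio was 0.93 (95% interval 0.59 to 1.27), whose lower bound is only just above the ratio of 3 to 2. *SNAPC1*, a subunit of a complex required for the transcription of small nuclear RNAs, is at chr14:62229138-62263146 on the forward strand and had 19.7, 24.02 and 24.8 CPM against 28.01, 23.7 and 25.7 CPM. The zinc-finger factor *ZBTB25* had 35.96, 30.9 and 28.3 CPM against 39.3, 34.2 and 24.4 CPM. Both had overlapping groups, with ratios of 0.17 (95% interval −0.20 to 0.54) and 0.041 (95% interval −0.44 to 0.52), the latter being 0.22 without replicate 3. *MNAT1*, the assembly factor of the CDK-activating kinase, had a ratio of 0.78, the zinc-finger factor *YY1* had 0.36, and *ARID4A*, a chromatin-associated protein that binds RB1, had 0.096, which was 0.33 without replicate 3.

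Replicate 3 of *ZK3*-KO differed from the other *ZK3*-KO libraries with gene length. It was the lowest *ZK3*-KO library for 34 of the 58 genes and the highest for 18. Across the 58 genes, the rank correlation of the level relative to *ZK3*-WT with the summed exon length was −0.11 in replicate 1, −0.045 in replicate 2 and −0.39 in replicate 3. Over 15972 tested genes with a length it was −0.0089, 0.0094 and −0.25, so the relation in replicate 3 was not one of 14q genes alone. The 29 shorter genes of the set had medians of 0.69, 0.69 and 0.53 in *ZK3*-KO replicates 1, 2 and 3, and the 29 longer genes 0.49, 0.53 and 0.33. In every *ZK3*-KO library the shorter genes were thus above the longer ones, and both were above 0. The part of transcript length in these ratios was not tested.

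**Figure D5:**
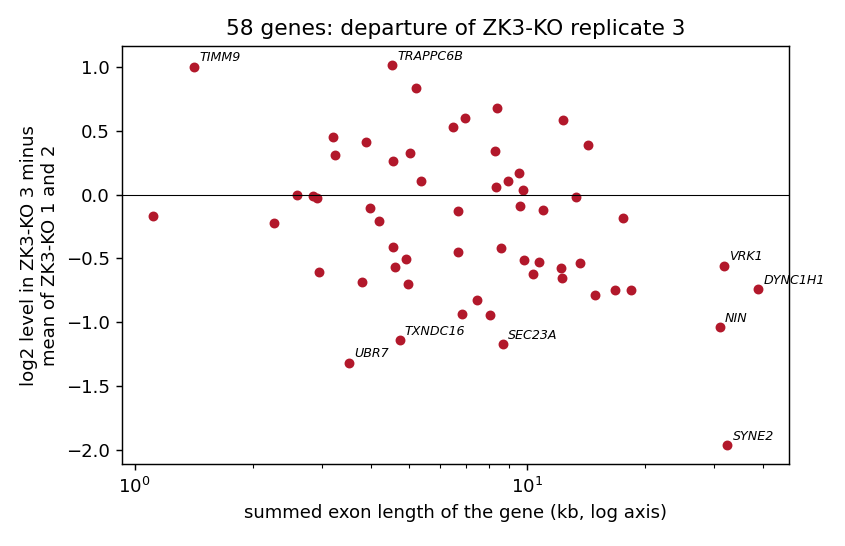
Difference in log2 level between *ZK3*-KO replicate 3 and the mean of replicates 1 and 2 against summed exon length (log axis) for the 58 genes. *SYNE2* (−1.96) is lowest, the 4 genes with the greatest exon length lie below 0, and *TRAPPC6B* (1.02) and *TIMM9* (1.00) are highest.

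Several of the 58 genes encode subunits of complexes whose other subunits lie on other chromosomes, and a list of 54 such partners was examined. Their median log2 ratio was 0.056, against 0.018 over all tested genes. By edgeR's quasi-likelihood test, 0 of the 54 were past an FDR of 0.05, where 2.05% of all tested genes were. At an unadjusted p under 0.05 there were 10 of 54 and 3371 of all 18366 (18.4%). DESeq2 had 4 of 54 past an FDR of 0.05 and 1506 of the 18360 genes with an adjusted p (8.2%). Limma had 1 of 54 past it, where 2.08% of all tested genes were. The 14q subunits were chosen for being higher, so their ratios beside those of the partners are a description. For COPII, *SEC23A* had 0.64 and its 8 partners ranged from −0.076 for the cargo adaptor *SEC24D* to 0.46 for the outer coat subunit *SEC13* (FDR 0.27). For the CDK-activating kinase, *MNAT1* had 0.78 while *CDK7* and cyclin H (*CCNH*) had −0.12 (FDR 0.734) and −0.14 (FDR 0.73). For serine palmitoyltransferase, *SPTLC2* had 0.47 and its catalytic partner *SPTLC1* −0.090 (FDR 0.768). A difference that misses the threshold does not show that a partner kept its level.

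In the 2-oxoglutarate dehydrogenase complex, *DLST* had 0.66 and both *OGDH* and *DLD* had 0.18 (FDR 0.624 and 0.629). For TFIIA, *GTF2A1* had 0.58 and *GTF2A2* 0.035 (FDR 0.944). For dynein, *DYNC1H1* had 0.60, and its 8 partners ranged from −0.19 for *DYNLT3* to 0.57 for the light chain *DYNLL1* (FDR 0.106). *DYNLL1* had 93.6, 85.4 and 87.97 CPM in *ZK3*-WT and 115, 139 and 144 CPM in *ZK3*-KO libraries and no overlap. The 7 partners of *COQ6* ranged from −0.56 for *COQ8B* (FDR 0.119) to 0.26 for *COQ3*, and the 5 partners of *TRAPPC6B* from 0.0043 for *TRAPPC5* to 0.41 for *TRAPPC4* (FDR 0.186). *SNAPC1*, which itself departed from the ratio of 3 to 2, had partners from −0.25 for *SNAPC3* to 0.68 for *SNAPC5* (FDR 0.201). *EIF2S3*, the gamma subunit of the factor on which *EIF5* acts, had 479, 422 and 437 CPM against 295, 285 and 293 CPM, a ratio of −0.62 (FDR 0.0793). Without *ZK3*-KO replicate 3, *DYNLL1*, *WDR33*, *COQ8B* and *EIF2S3* were past an FDR of 0.05, the former pair higher and the latter pair lower, which is 4 of 54 where 15.1% of all genes tested were past it.

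The mitochondrial partners of *TIMM9* had ratios of 0.21 for *TIMM10*, −0.21 for *TIMM10B* and 0.38 for *TIMM22*. The kinases activated by *NEK9* had −0.40 for *NEK6* (FDR 0.218) and −0.12 for *NEK7*. Of the cleavage and polyadenylation factors that work with *PAPOLA*, *FIP1L1* had the lowest ratio (0.054) and *WDR33* the highest (0.44, FDR 0.16).

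Paralogues on other chromosomes can take over the function of a gene, and 35 of the 37 listed for the set were tested. Their median was −0.029, and 0 were past an FDR of 0.05 by edgeR's quasi-likelihood test, where 2.05% of all tested genes were. At an unadjusted p under 0.05 by that test there were 6 of 35 (18.4% of all tested genes). Past an FDR of 0.05 were 4 by DESeq2 (8.2% of all genes) and 0 by limma (2.08% of all genes). *SAMD4B*, the paralogue of *SAMD4A*, had 137, 116 and 131 CPM against 134, 123 and 157 CPM, a ratio of 0.11 (FDR 0.752). *ACTN4* had −0.029 beside 0.79 for *ACTN1*, and *VRK2* and *VRK3* had −0.18 and 0.31 beside 1.09 for *VRK1*. The 3 lowest FDRs were those of *SYNE1*, with 21.6, 25.7 and 29.9 CPM against 13.4, 9.87 and 17.6 CPM (ratio −0.92, FDR 0.114), *ZFP36L2*, with 46.4, 57.6 and 46.5 CPM against 27.8, 35.4 and 25.1 CPM (ratio −0.77, FDR 0.0867), and *SEC23B*, with 128, 141 and 141 CPM against 201, 229 and 197 CPM (ratio 0.61, FDR 0.0821). In these 3 the groups did not overlap. Without *ZK3*-KO replicate 3, 5 paralogues were past an FDR of 0.05 (*SEC23B*, *SYNE1*, *ZFP36L2*, *PYGB* and *ARF5*), where 15.1% of all genes tested were.

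Levels between the genes are compared per transcript length. In *ZK3*-WT cells they ranged from 2.52 TPM for *TXNDC16* to 306 TPM for *ERH*. Genes whose interval left out the ratio of 3 to 2 thus included the most abundant of the set (*ERH*) and low ones such as *ZBTB25* (8.08 TPM). Depth did not limit most of these values, since 52 of the 58 genes had over 1000 reads in every library. The spread between replicates did, with a median standard error of 0.194 on the log2 scale. Of the 58 genes, 17 overlap another tested gene, *COQ6* with *ENTPD5* and *PRPF39* with *FKBP3* among them. In 2 of these, *ACTN1* with *HMGN1P3* and *ALKBH1* with *RPL21P10*, the overlap is on the same strand. The strand setting of the counting is not given in the sources used here, so reads of such pairs may be shared. Processed pseudogenes of the set had few reads, at most 179 for *DLSTP1* and at most 2 for the others.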

How the data were processed

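The authors sequenced RNA of 3 *ZK3*-WT and 3 *ZK3*-KO cultures and deposited 1 table with a read count per gene, FPKM values and TPM values for each library. Bowtie 2 (2.2.5 in the submitters' processing notes), GRCh37 (hg19), the Partek Flow software and Ensembl gene models are named by the notes and methods, whereas rows of the table carry NCBI Gene and RefSeq identifiers. The deposited FPKM values (per transcript length and library size) were not used. The deposited TPM values (per transcript length) gave levels between genes and 1 alternative.

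The counts were fitted with edgeR 4.0.16 (R 4.3.3), using filterByExpr (18366 genes left), TMM factors (0.910 to 1.03) and the quasi-likelihood test on genotype, with Benjamini-Hochberg adjustment over all tested genes and a threshold of 0.05. Of the genes, 31861 were placed on GRCh37 by HGNC identifier or symbol. Log2 ratios are edgeR coefficients, and 95% intervals use the standard error from the quasi-likelihood F. Library medians use log2 CPM with a pseudocount of 0.5. The scripts were tested on simulated counts.

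The 58 genes and the lists of partners and paralogues were chosen with earlier results of these data known. Ratios are given for every gene of the set. The rule gave values in every library for the 6 with the highest ratio, the 6 with the lowest and the 6 nearest the ratio of 3 to 2, and for those whose interval leaves it out. *CNIH1*, *GCH1*, *ZFP36L1*, *ACTN1* and *ATXN3* were added after their values were seen. The rule for partners and paralogues took those past an FDR of 0.05, of which there were 0, and partners of genes described in full; any others were picked with values known. Other chromosome 14 genes are the 6 highest and 6 lowest whose mean log2 CPM reached 1. The labels do not say what same-numbered libraries share. Their deviations had correlations of 0.44, 0.12 and 0.58 for numbers 1, 2 and 3, against −0.52 to 0.27 for unlike numbers. *ZK3*-KO 2 was at 0.27 with *ZK3*-WT 1, so number 2 does not show a pairing. The main fit did not use pairs, and comparisons by number are a description. The fit with the number as a block was an alternative, as were DESeq2 1.42.0, limma 3.58.1 on log2(TPM + 1), other scaling, other filters and leaving out each library.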

Additional observations from a re-analysis of the deposited data

How the results depend on the processing

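The median log2 ratio of the 58 genes was 0.58 and ranged from 0.53 to 0.65 when single libraries were left out and from 0.51 to 0.59 under other scalings, filters, DESeq2 and the replicate block, but was 0.37 on log2(TPM + 1), where the median of all genes was −0.082 in place of 0.018. The number of genes past an FDR of 0.05 and higher among them was 6 and was 25 with DESeq2, 3 over all genes with at least 1 read, 2 with limma and 0 to 36 with a library left out (36 without *ZK3*-KO replicate 3 and 0 without any other). Over all genes and in either direction, 376 were past it in the main fit (2.05%). There were 1506 with DESeq2 (8.2%), 270 over all genes with at least 1 read and 382 with limma (2.08%). With the replicate block 7 of the 58 were past it and higher, the block gave 461 in place of 376 calls over all genes, and the median of the 58 was 0.53. Intervals that held the ratio of 3 to 2 numbered 47 and ranged from 44 to 48, and from 38 to 56 with a library left out. The other chromosome 14 genes had a median of 0.50, which was 0.42 with library totals, 0.47 with upper-quartile factors, 0.26 with limma, 0.46 with the replicate block and 0.46 to 0.50 with a library left out. The partners' median of 0.056 was −0.026 with library totals, −0.071 with limma and 0.0083 to 0.11 with a library left out, and that of the paralogues, −0.029, was −0.19 with limma and −0.12 to 0.039 with a library left out. Partners past an FDR of 0.05 numbered 4 with DESeq2, 1 with limma and 0 to 4 with a library left out, and paralogues 4 with DESeq2, 1 with the replicate block and 0 to 5 with a library left out. Over all genes, 49 to 2858 were past that threshold with a library left out. The cause of these differences was not tested. Of 812 alternative values of single genes, 793 were within 1 SD of the value given, where the SD is that between replicates of these same libraries. Leaving out 1 library can hardly move a ratio by that much, so this count is no measure of stability. *GOLGA5*, *TRIP11*, *SYNE2*, *PCNX1*, *ZFP36L1*, *ARID4A*, *ZBTB25* and *KLHL28* changed sign in at least 1 alternative.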

Other observations

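Genes of chromosome 14 outside the set had larger changes than any of the 58. Of the 93 genes before 30 Mb, 0 were past the edgeR threshold and higher, and 2 were past it and lower. Of the 356 from 30 Mb on, 48 were higher and 1 was lower. Over all tested genes the shares were 0.817% and 1.23%. The arm was chosen for this same difference and 30 Mb was set after the medians were seen, so these counts are a description. Considering genes whose average log2 CPM was 1 or more, *DACT1*, a Wnt pathway regulator, had 3.01, 1.38 and 1.97 CPM in *ZK3*-WT and 11.7, 6.81 and 14.1 CPM in *ZK3*-KO libraries, a log2 ratio of 2.36 (edgeR FDR 0.0292). *ESRRB*, an orphan nuclear receptor, had 2.54, 3.22 and 2.37 CPM against 7.98, 9.91 and 7.70 CPM, a ratio of 1.65 (edgeR FDR 0.017). The other high values were 2.08 for the bradykinin receptor *BDKRB2* (edgeR FDR 0.0543), 1.88 for the forkhead factor *FOXA1* (edgeR FDR 0.0543), 1.79 for the endocytic adaptor *STON2* (edgeR FDR 0.0679) and 1.64 for the adenylate kinase *AK7* (edgeR FDR 0.0812). All 6 lie in the raised stretch, with folds above 3 to 2.

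At the low end, *LINC02331* had a ratio of −3.59 (edgeR FDR 0.012) within the raised stretch. *DHRS2*, a mitochondrial short-chain dehydrogenase before 30 Mb, had 45.9, 32.6 and 40.8 CPM against 10.03, 3.46 and 6.33 CPM, a ratio of −2.59 (edgeR FDR 0.0225). Before 30 Mb, *IRF9*, the DNA-binding subunit of the interferon-stimulated factor ISGF3, had −1.64 (edgeR FDR 0.0532) and the membrane metalloproteinase *MMP14* −1.17 (edgeR FDR 0.12). The protease inhibitors *SERPINA1* and *SERPINA5*, in the raised stretch, had −0.95 (edgeR FDR 0.48) and −0.93 (edgeR FDR 0.118).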
